A study of Arabidopsis thaliana with 18 samples.

Results

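Seed maturation, dormancy and the arrest of ripe seed depend on a small set of regulators, described here as 9 genes: ABI3 (AT3G24650), FUS3 (AT3G26790), LEC2 (AT1G28300), LEC1 (AT1G21970), L1L (AT5G47670), ABI4 (AT2G40220), ABI5 (AT2G36270), DOG1 (AT5G45830) and MFT (AT1G18100), found by gene identifier among the 37336 genes of the count table and located here on TAIR10. The libraries came from whole germinating Arabidopsis thaliana seed of 8 mutants, vnd2, smb, hat2, athb15, athb25, lmi1, wrky14 and obp1, and of the wild type Col-0, with 2 libraries of each genotype. Each mutant is named after the transcription factor gene disrupted by its T-DNA insertion (homozygous SALK lines, each a single line), and mutants and Col-0 were raised side by side. All seed was kept at 4 °C in the dark for 48 h and then at 22 °C in continuous light for 24 h (24 h SL). The libraries held between 18146206 and 33111743 counts.

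The disrupted gene was checked first in each line. It had fewer counts than in Col-0 in 6 lines, although VND2 was so low (8 and 7 counts in vnd2, against 13 and 11 in Col-0) that it says little. OBP1 reached 398 and 353 counts in the line labelled obp1, against 187 and 223 in Col-0. WRKY14 reached 313 and 277 counts in that labelled wrky14, against 6 and 9 in Col-0. Both go against a loss of the transcript, so no direction in these libraries can be assigned to loss of the factor. By PCR genotyping and genome resequencing the paper found a single T-DNA insertion in each line, at the intended gene. Whether the insertions or the labels account for these higher counts was not tested. Duplicates were drawn from seed pooled over several parent plants, and whether each had its own pool is not given in the sources used here, so the p-values measure only the spread between these libraries. In whole seed, fewer cells of a type and less RNA per cell cannot be told apart.

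In Arabidopsis, the B3-domain factors ABI3, FUS3 and LEC2 and the NF-YB subunits LEC1 and L1L drive the maturation phase, in which the embryo lays down storage proteins, oil bodies and the proteins that protect it from drying. Abscisic acid acts through ABI3, the AP2-domain factor ABI4 and the bZIP factor ABI5, which also arrest growth after germination, while DOG1 sets the depth of dormancy and MFT, a relative of the flowering protein FT, takes part in the abscisic acid response of the seed. As seed germinates, chromatin repressors shut this programme down.

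At 24 h SL the 9 genes fell into an abundant set and a set near the limit of detection. ABI3, ABI4 and ABI5 stood far above the others, with medians over the 18 libraries of 107, 85.9 and 61.5 CPM per kb (counts scaled to library size, CPM, divided by the kilobases of exon). MFT and FUS3 followed at 0.805 and 0.766 CPM per kb and LEC2 at 0.207 CPM per kb. DOG1, L1L and LEC1 were lowest, at 0.103, 0.0746 and 0.0478 CPM per kb. The 3 abundant genes also varied least among genotypes: the coefficient of variation of the 9 genotype means was 5.08% for ABI3, 3.77% for ABI4 and 8.99% for ABI5, against 39.5% for FUS3 and 94.7% for MFT.

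**Figure D1:**
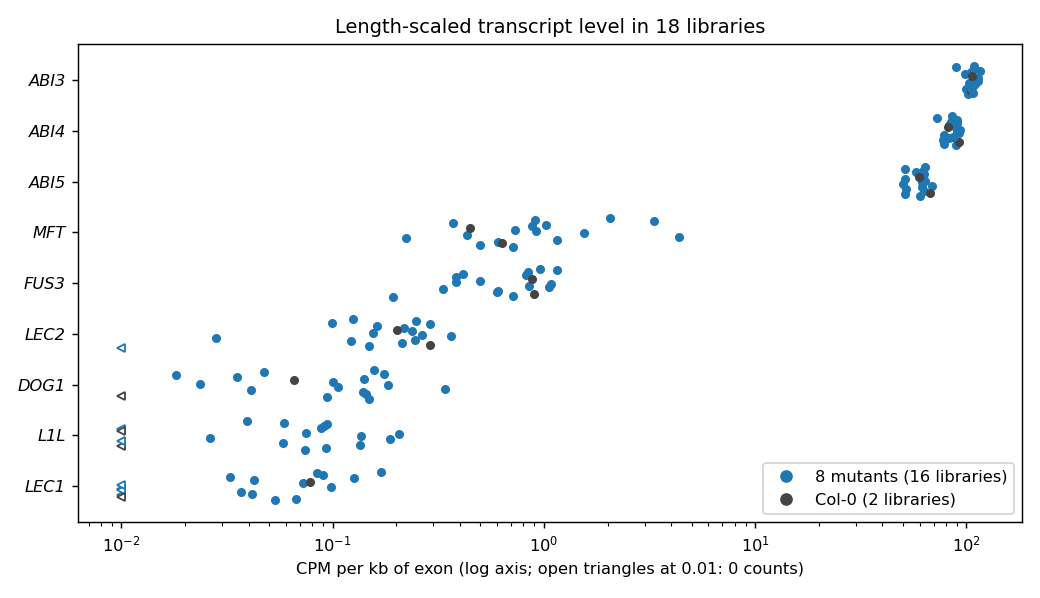
Level of each of the 9 genes in 18 libraries, as CPM per kb of exon on a log axis, with the 16 mutant libraries in blue and the 2 Col-0 libraries in grey; open triangles mark libraries with 0 counts. ABI3, ABI4 and ABI5 lie between 50.1 and 115 CPM per kb, and no library of any other gene exceeds 4.37.

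Of the 9 genes 6 passed the filter on low counts and were tested: ABI3, FUS3, LEC2, ABI4, ABI5 and MFT. A gene was called changed at an adjusted p under 0.01 in edgeR's quasi-likelihood test, fitted to all 19100 genes that passed. Over the 6 genes and 8 mutants, 2 of 48 tests were called, or 4.17%, both of them MFT and both higher, in vnd2 and in smb. Over all genes 1.86% of such tests were called, and 0.904% were called higher. An unadjusted p under 0.05 was reached in 9 of the 48 tests, and DESeq2 also called 2. In a test of all 9 genotypes together, which called 11.9% of all genes, MFT (adjusted p = 7.83e-07) and FUS3 (adjusted p = 0.00245) differed, while ABI5 missed the threshold (adjusted p = 0.0106) that it passed in DESeq2 (adjusted p = 0.000183). Over the 36 pairs of genotypes the 6 genes were called 17 times, 12 for MFT, 3 for FUS3 and 2 for ABI5, where 2.32% of tests over all genes were called.

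**Figure D2:**
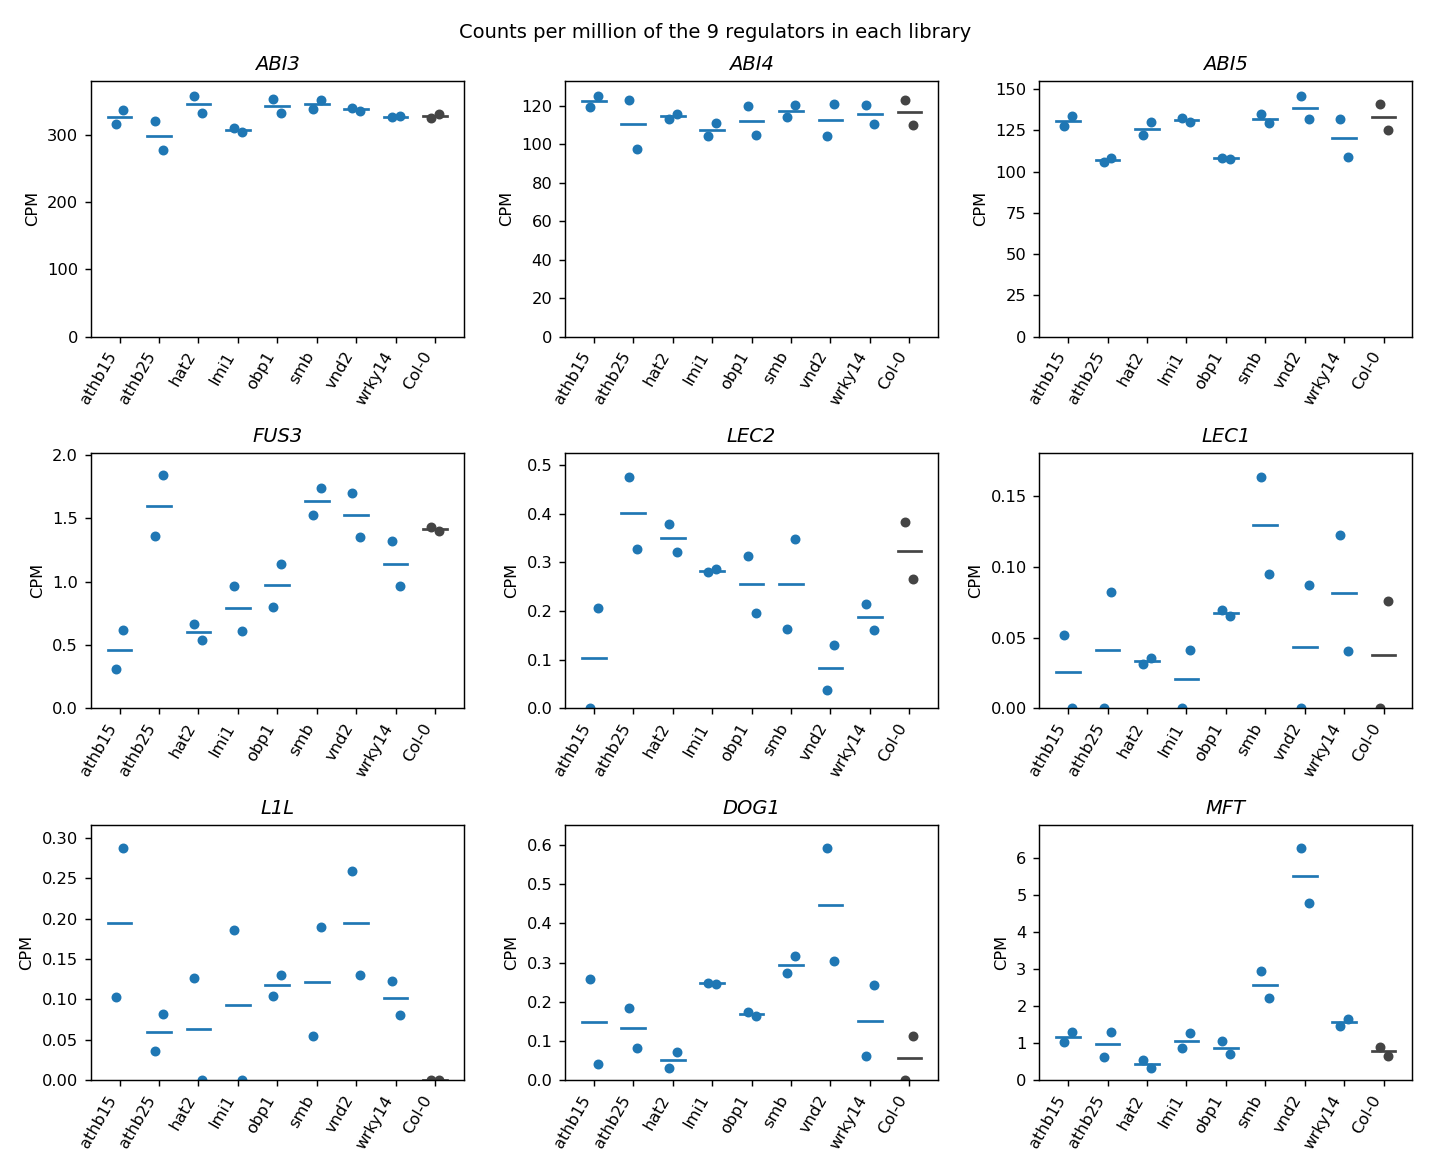
CPM of each of the 9 genes in every library (points) with the mean of each genotype (bar), the 8 mutants in blue at the left of each panel and Col-0 in grey at the right; each panel has its own scale from 0. MFT reaches 6.28 and 4.78 CPM in vnd2, while ABI3 stays between 278 and 358 CPM in all 18 libraries.

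ABI3 (chr3:8997370-9001185, plus strand), the B3 factor that binds RY elements (CATGCA) in storage protein promoters, was the most abundant of the 9 per kb and showed no called change. It had 341 and 336 CPM in vnd2, 339 and 353 CPM in smb and 320 and 278 CPM in athb25, against 325 and 332 CPM in Col-0. Both libraries of athb25 and of lmi1 lay below the Col-0 libraries, and both of hat2, smb, vnd2 and those labelled obp1 lay above them, by little: fitted log2 fold changes against Col-0 ran from -0.13 in athb25 (SE 0.0686) to 0.08 in hat2 (SE 0.0684). The test of the 9 genotypes together gave an adjusted p of 0.150 in edgeR.

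FUS3 (chr3:9853828-9856212, minus strand), the B3 factor that represses gibberellin synthesis and sustains abscisic acid in the seed, was scarce but not uniform. It had 6 and 15 counts in athb15, or 0.309 and 0.616 CPM, and 21 and 15 counts in hat2, or 0.663 and 0.536 CPM, against 30 and 37 counts in Col-0, or 1.43 and 1.40 CPM. All 4 of those mutant libraries lay below both Col-0 libraries. The means were 0.789 ± 0.248 CPM in lmi1, 0.971 ± 0.238 CPM in the libraries labelled obp1 and 1.14 ± 0.246 CPM in those labelled wrky14 (SD, n = 2 each), and 1.63 ± 0.149 CPM in smb, 1.60 ± 0.344 CPM in athb25 and 1.52 ± 0.250 CPM in vnd2, against 1.42 ± 0.0217 CPM in Col-0 (SD, n = 2 each). Neighbours in the order of the 9 means had overlapping libraries, except Col-0 and the libraries labelled wrky14, and no neighbours were called different.

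Against Col-0 the fitted log2 fold change of FUS3 was -1.56 in athb15 (SE 0.360, edgeR adjusted p = 0.0588) and -1.23 in hat2 (SE 0.319, edgeR adjusted p = 0.0499), so neither was called. The 3 pairs that were called do not involve Col-0: -1.67 for athb15 over vnd2 (edgeR adjusted p = 0.00871; 1.78% of all genes called), -1.45 for hat2 over smb (edgeR adjusted p = 0.00671; 2.65% called) and -1.34 for hat2 over vnd2 (edgeR adjusted p = 0.00760; 5.63% called). These pair calls are narrow. DESeq2 gave adjusted p-values of 0.0155, 0.0177 and 0.0227 for them, and leaving out single libraries raised them to as much as 0.136, 0.0924 and 0.0730 with edgeR, losing the first call in 12 of 18 such fits, the second in 5 and the third in 7. The difference among the 9 genotypes together held in all 18 (highest adjusted p = 0.00835, without athb15 replicate 1).

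The 250 bases upstream of FUS3 are shown because it is the only one of the 9 genes with an RY element there, beginning 25 bases before the 5′ end of the annotated gene; the element is in capitals. The window, chr3:9856213-9856462 on the minus strand of TAIR10, is printed 5′ to 3′.
FUS3: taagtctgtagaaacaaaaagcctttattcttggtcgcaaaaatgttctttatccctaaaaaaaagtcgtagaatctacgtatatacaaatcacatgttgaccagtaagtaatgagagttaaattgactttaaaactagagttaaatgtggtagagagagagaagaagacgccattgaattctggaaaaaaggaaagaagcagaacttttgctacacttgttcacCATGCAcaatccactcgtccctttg

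LEC2 (chr1:9896867-9899876, minus strand), the third B3 factor of the embryo programme, had 122 counts in all libraries together, from 0 to 13 in each. The vnd2 libraries held 1 and 3 counts and the athb15 libraries 0 and 5, against 8 and 7 in Col-0. Both vnd2 libraries and both athb15 libraries lay below Col-0, and the fitted log2 fold changes were -1.93 in vnd2 (SE 0.764, edgeR adjusted p = 0.128) and -1.44 in athb15 (SE 0.733, edgeR adjusted p = 0.536), neither called. At this depth a smaller difference in LEC2 was not detectable. The edgeR test of the 9 genotypes together gave an adjusted p of 0.182.

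LEC1 (chr1:7727577-7729649, minus strand) and L1L (chr5:19314778-19316169, plus strand), the seed-type NF-YB subunits that work with NF-YC partners and with the B3 factors, did not pass the filter. LEC1 had 25 counts over the 18 libraries, at most 4 in any, and 5 libraries had none. The largest sum was 6 counts in smb, 0.120 CPM with a 95% exact Poisson interval of 0.0441 to 0.261, against 2 counts in Col-0, 0.0423 CPM with an interval of 0.00512 to 0.153. These intervals overlap, and they cover counting error only. L1L had 52 counts, at most 7 in any library. It had 10 counts in vnd2 and 9 in athb15, against 0 in both Col-0 libraries, which allows up to 0.143 and 0.114 CPM (3 counts) in them. The Poisson intervals were 0.0958 to 0.367 CPM in vnd2 and 0.0940 to 0.390 CPM in athb15. Both lay above that of Col-0, 0 to 0.0779 CPM, which the intervals of the other mutants overlapped. These too cover counting error only. An edgeR fit with no count filter called neither against Col-0 (adjusted p = 0.0582 for vnd2 and 0.175 for athb15). L1L shares 116 bases of exon with AT5G47660 on the same strand and 124 with TRM10 on the opposite one, and these neighbours had 510 to 957 and 1408 to 2519 counts in a library, so L1L counts cannot be told apart from stray counts of either.

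ABI4 (chr2:16796247-16797585, minus strand), the AP2-domain factor best known for blocking seedling growth in abscisic acid and sugar, was the steadiest of the 9 genes. It had 104 and 121 CPM in vnd2, 120 and 125 CPM in athb15 and 104 and 111 CPM in lmi1, against 123 and 110 CPM in Col-0. The range of every mutant overlapped that of Col-0, the fitted log2 fold changes ran from -0.11 in lmi1 (SE 0.0973) to 0.07 in athb15 (SE 0.0976), and the edgeR test of the 9 genotypes together gave an adjusted p of 0.803.

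ABI5 (chr2:15204659-15207636, minus strand), the bZIP factor that carries the abscisic acid arrest after germination, had its lowest levels in athb25 and in the libraries labelled obp1, where it did not pass the threshold against Col-0. It had 106 and 108 CPM in athb25 and 108 and 108 CPM in the libraries labelled obp1, against 141 and 125 CPM in Col-0. These 4 libraries were the lowest of the 18 and lay below both Col-0 libraries. The log2 fold change was -0.32 in athb25 (SE 0.0811, edgeR adjusted p = 0.0264). For the obp1-labelled libraries over Col-0 it was -0.30 (SE 0.0808, edgeR adjusted p = 0.0231).

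The highest ABI5 level was 146 and 132 CPM in vnd2. Set against it, ABI5 was called lower in athb25 (log2 fold change -0.38, edgeR adjusted p = 0.00289; 10.7% of all genes called) and in the obp1-labelled libraries (-0.36, edgeR adjusted p = 0.00419; 9.52% called). The first call was lost without athb25 replicate 1 (adjusted p = 0.0270), athb25 replicate 2 (0.0188) or vnd2 replicate 1 (0.0319) in the edgeR fit. The second was lost without obp1 replicate 1 (0.0382), obp1 replicate 2 (0.0439) or vnd2 replicate 1 (0.0578), again in edgeR.

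ABI5 carried the most abscisic acid response elements of the 9 genes in the same upstream window, which is why it is printed. The core searched was ACGTG on either strand, and chr2:15207637-15207886 on the minus strand of TAIR10 holds 7 matches, of which 6 fall in 3 copies of the palindrome CACGTG, each read once on either strand. Matches are in capitals.
ABI5: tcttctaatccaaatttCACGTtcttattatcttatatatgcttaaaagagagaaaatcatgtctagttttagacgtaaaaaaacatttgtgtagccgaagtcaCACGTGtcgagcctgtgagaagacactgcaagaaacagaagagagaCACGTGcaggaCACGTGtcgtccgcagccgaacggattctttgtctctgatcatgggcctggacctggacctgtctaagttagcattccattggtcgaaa

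DOG1 (chr5:18589418-18591506, minus strand), the protein that sets how deeply a seed is dormant, was at the edge of detection 24 h into the light. The vnd2 libraries held 16 and 7 counts, those of smb 5 and 10 and those of lmi1 8 and 6, against 0 and 3 in Col-0. Those 6 mutant libraries lay above both Col-0 libraries, as did those labelled obp1, with 5 and 5 counts. The 2 vnd2 libraries together had 23 counts, 0.459 CPM with a 95% exact Poisson interval of 0.291 to 0.689, against 3 counts in Col-0, 0.0634 CPM with an interval of 0.0131 to 0.185. The ratio was 7.25, with a counting interval of 2.19 to 37.7. The hat2 libraries held 1 and 2 counts, and vnd2 over hat2 gave a ratio of 9.14 (2.76 to 47.6). DOG1 did not pass the filter. In a fit of all genes with no count filter, in which 4.02% of pair tests over all genes were called, vnd2 over Col-0 had an edgeR adjusted p of 0.0208 and hat2 over vnd2, the 1 pair of DOG1 that was called, 0.00489. That fit took the spread between libraries as known, so its p-values understate the uncertainty.

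MFT was the only one of the 6 tested genes called against Col-0. The vnd2 libraries held 170 and 110 counts, or 6.28 and 4.78 CPM, against 19 and 17 counts in Col-0, or 0.907 and 0.644 CPM. The smb libraries held 54 and 70 counts, or 2.95 and 2.21 CPM. Both vnd2 libraries stood above the other 16, and both smb libraries stood above the remaining 14, which lay between 0.321 and 1.65 CPM.

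MFT was 7.25-fold higher in vnd2 than in Col-0 (log2 fold change 2.86, SE 0.294, edgeR adjusted p = 3.44e-06), where 4.13% of all genes were called and 1.97% were called higher. In smb it was 3.29-fold higher (1.72, SE 0.332, edgeR adjusted p = 0.00400), where 2.15% of all genes were called and 0.618% were called higher. The vnd2 call held in all 25 alternatives, with log2 fold changes from 2.35 to 3.11. The smb call depended on every library involved: the edgeR adjusted p was 0.0182 when Col-0 replicate 1 was dropped, 0.0960 when Col-0 replicate 2 was, 0.0380 for smb replicate 1 and 0.0130 for smb replicate 2.

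The other genotypes followed at lower levels. Neighbours in the order of means had overlapping libraries between athb15 and Col-0. They did not overlap between vnd2 and smb, smb and the wrky14-labelled libraries, these and athb15, or Col-0 and hat2. MFT averaged 1.56 ± 0.130 CPM in the libraries labelled wrky14, 1.17 ± 0.200 in athb15, 1.07 ± 0.280 in lmi1, 0.966 ± 0.486 in athb25, 0.881 ± 0.234 in those labelled obp1 and 0.429 ± 0.152 in hat2, against 0.776 ± 0.186 CPM in Col-0 (SD, n = 2 each). Both hat2 libraries were below both Col-0 libraries, but the difference was not called (log2 fold change -0.80, SE 0.448, edgeR adjusted p = 0.412), nor was that of the wrky14-labelled libraries over Col-0 (1.02, SE 0.352, edgeR adjusted p = 0.140). No neighbours in this order were called different, vnd2 and smb included (-1.14 for smb over vnd2, edgeR adjusted p = 0.0212).

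Between pairs, MFT was called higher in vnd2 than in 7 of the other 8 genotypes, with smb the exception, and all 7 calls held in every alternative run. It was called higher in smb than in Col-0, athb25, hat2 and the libraries labelled obp1. The smb calls over athb25 and over those libraries were each lost in 3 of the 18 fits that left out a library (edgeR adjusted p up to 0.114 and 0.0457). The last of the 12 pairs was hat2 over the wrky14-labelled libraries at -1.82 (edgeR adjusted p = 0.00987; 1.13% of all genes called), a call lost in 13 of the 18 fits (adjusted p up to 0.0872).

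**Figure D3:**
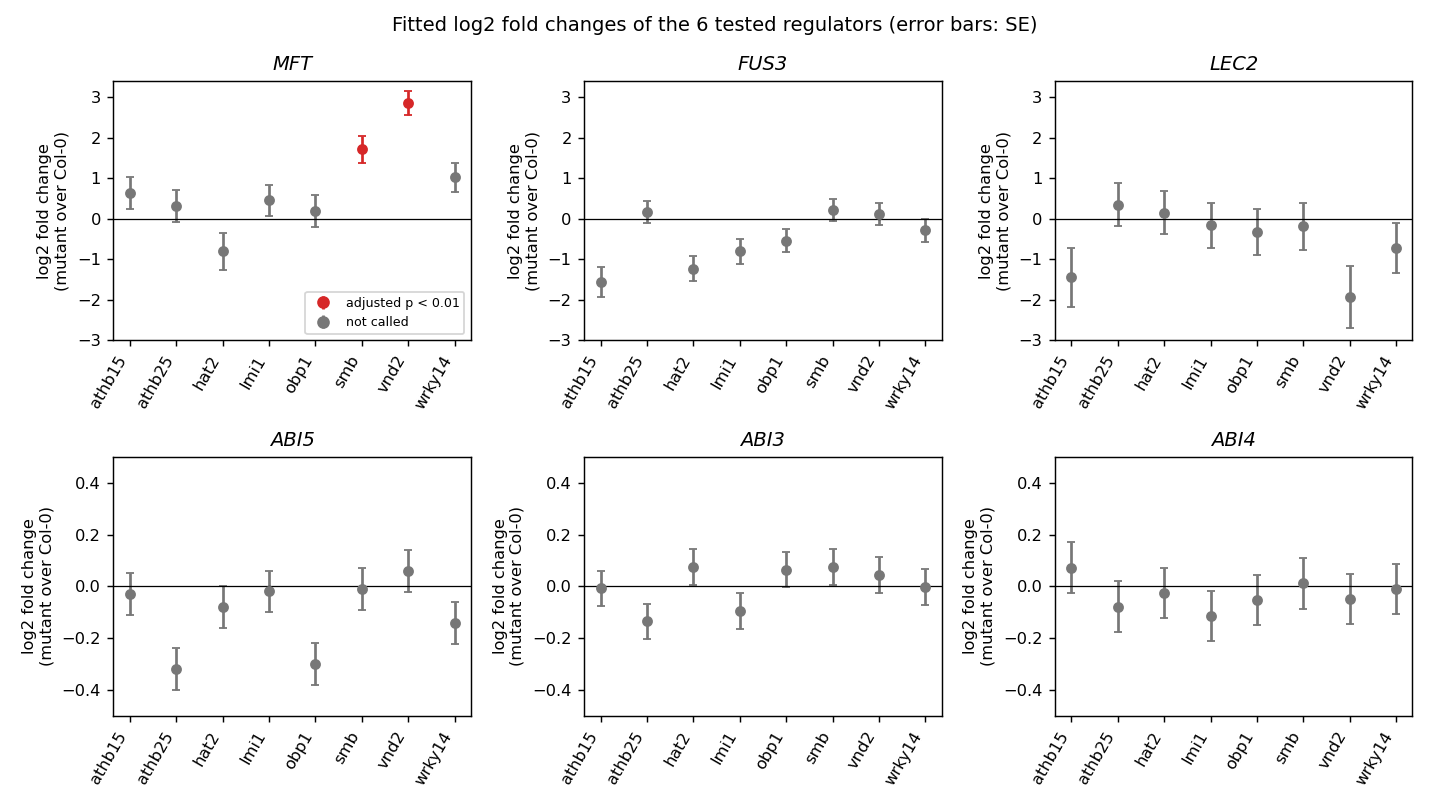
Fitted log2 fold change of each mutant over Col-0 (points, with SE) for the 6 tested genes; red points passed an adjusted p of 0.01, and the lower panels have a narrower axis. The 2 red points are MFT in smb (1.72) and in vnd2 (2.86), and ABI3, ABI4 and ABI5 stay between -0.32 and 0.08.

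MFT lies at chr1:6227217-6230194 on the minus strand of TAIR10. Its exons share 606 bases with AT1G18090 on the opposite strand, and the strand setting of the counting is not given in the sources used here. AT1G18090 did not move with MFT: it had 13.5 and 12.6 CPM in vnd2 and 13.0 and 14.4 in smb, against 13.0 and 14.6 CPM in Col-0. Its upstream window, chr1:6230195-6230444 on the minus strand, is shown because MFT is the gene whose level changed. It holds 2 ACGTG cores, in capitals, beginning 187 and 140 bases before the gene, and no RY element.
MFT: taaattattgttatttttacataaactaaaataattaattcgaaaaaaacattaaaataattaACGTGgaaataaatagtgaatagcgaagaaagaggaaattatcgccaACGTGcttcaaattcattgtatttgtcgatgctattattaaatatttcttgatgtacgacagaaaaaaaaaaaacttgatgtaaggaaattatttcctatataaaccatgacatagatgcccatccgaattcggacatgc

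The other 6 genes had neither motif in this window. Of all 27431 protein-coding genes, 8.45% have an RY element and 22.9% an ACGTG core in the same 250 bases, close to the 1 and 2 of the 9 regulators. Among 16 maturation targets that these regulators activate in ripening seed, 10 (62.5%) had the RY element and 11 (68.8%) the ACGTG core. A match is a description of the letters and not of a bound site.

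The tested genes whose mean log2 CPM followed MFT most closely over the 9 genotypes were HAK5, a high-affinity potassium transporter (r = 0.993), and AtMT4a, a metallothionein of seeds (r = 0.990). These r values compare 9 genotype means taken from the same libraries for 19099 genes, so a high value is a description only. HAK5 averaged 2.03 ± 0.531 CPM in vnd2 and 0.687 ± 0.0321 CPM in smb, against 0.195 ± 0.0617 CPM in Col-0 (SD, n = 2 each). AtMT4a averaged 12.1 ± 6.92 CPM in vnd2 and 4.43 ± 0.482 CPM in smb, against 0.595 ± 0.0371 CPM in Col-0 (SD, n = 2 each). Both had their lowest mean in hat2, at 0.0810 and 0.303 CPM. HAK5 was near the floor: 3 counts are worth 0.0947 and 0.107 CPM in the hat2 libraries and 0.143 and 0.114 CPM in those of Col-0. Among the other 5 tested regulators r with MFT was lower: 0.18 for ABI3, 0.49 for FUS3, 0.43 for ABI5, 0.04 for ABI4 and -0.66 for LEC2. No r was computed for DOG1, LEC1 and L1L, which were not tested. On its few counts DOG1 had the same genotypes as MFT at both ends of its order, with mean levels of 0.448 CPM in vnd2, 0.295 CPM in smb and 0.0515 CPM in hat2, against 0.0568 CPM in Col-0.

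The 16 maturation targets, which code for 12S and 2S storage proteins, oleosins, late embryogenesis proteins and 3 other seed factors, were all tested. Of their 128 tests 29 were called (22.7%, against 1.86% over all genes), 21 higher and 8 lower. The list was chosen with earlier results of these data known, and all comparisons share the Col-0 libraries, so this share is a description only. In vnd2 13 of 16 rose, with a median log2 fold change of 1.60 (1.97% of all genes were called higher there). In smb 7 rose, with a median of 0.82 (0.618% of all genes). In the libraries labelled wrky14 1 rose (0.246% of all genes): SESA4, a 2S albumin (0.80, edgeR adjusted p = 0.00535, named after its value was seen; dropping Col-0 replicate 2 or either wrky14-labelled library left no call there). In hat2 8 fell, with a median of -1.01 (0.267% of all genes were called lower there), and the other 4 mutants had no call. The median of all genes lay within 0.0165 of 0 in every mutant.

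The summed level of the 16 targets was 13729.5 and 8135 CPM in vnd2, 5494 and 6023 CPM in smb and 1268 and 1183 CPM in hat2, against 2737 and 2258 CPM in Col-0. CRA1, a cruciferin named after its value was seen, and CRU3 made up most of this sum. CRA1 alone had 6521 and 3552 CPM in vnd2, against 1072 and 936 CPM in Col-0. The vnd2 duplicates differed from each other by more than the Col-0 duplicates did, and both lay above every other library. HSFA9, a seed heat-shock factor downstream of ABI3, rose to 131 and 64 counts in vnd2 and to 44 and 66 in smb, against 6 and 6 in Col-0 (log2 fold change 3.90 in vnd2, SE 0.494, edgeR adjusted p = 3.61e-05; 3.10 in smb, SE 0.545, edgeR adjusted p = 0.00169). CRU3, a 12S cruciferin, had 3572 and 2060 CPM in vnd2, against 530 and 393 CPM in Col-0 (2.61, SE 0.235, edgeR adjusted p = 9.62e-07).

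SESA5, a 2S albumin, had 7.04 and 15.6 CPM in hat2, against 127 and 55.0 CPM in Col-0 (log2 fold change -3.02, SE 0.461, edgeR adjusted p = 0.00169). The Col-0 duplicates lay far apart, and the call was lost when Col-0 replicate 1 (edgeR adjusted p = 0.0416) or hat2 replicate 1 (0.0578) was dropped. The count of 8 in hat2 became 1 without the first Col-0 library, 5 without the second, and 3 or 4 without hat2 replicate 1 or 2. The count of 7 in smb became 2 when Col-0 replicate 2 was dropped and 3 when smb replicate 2 was. The vnd2 count stayed between 12 and 15 whichever library was left out.

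**Figure D4:**
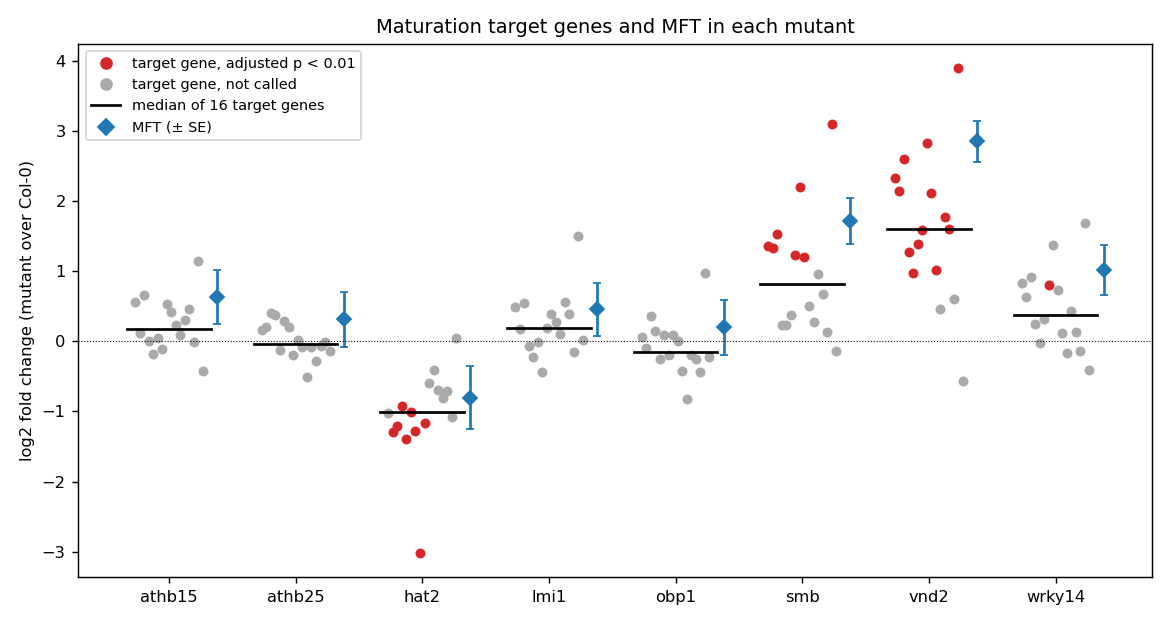
Log2 fold change of each mutant over Col-0 for the 16 maturation targets (points, red where adjusted p was under 0.01), their median (bar) and MFT (blue diamond, with SE). The target median and MFT are both highest in vnd2 (1.60 and 2.86), next in smb (0.82 and 1.72) and lowest in hat2 (-1.01 and -0.80).

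Photosynthesis transcripts, which build up as the seedling greens, had no call in vnd2 against Col-0. The 8 greening genes had a median log2 fold change of -0.44 there, where 0 of 8 were fitted higher. That median was -0.80 without vnd2 replicate 1, where 2 were called lower, and -0.20 without vnd2 replicate 2. With no count filter 6 were called lower in vnd2, and against the mean of the other 7 mutants 7 were. The median was 0.05 in smb and 0.67 in hat2, where 2 rose (0.393% of all genes were called higher). Both hat2 calls were lost without hat2 replicate 1 or either Col-0 library, and up to 5 were made with another library left out. In lmi1 1 rose (0.476% of all genes were called higher), LHCA4, a light-harvesting protein of photosystem I (0.53, SE 0.0942, edgeR adjusted p = 0.00345, named after its value was seen), and no call was left there without lmi1 replicate 1 or either Col-0 library. The summed level of the 8 genes was 2800 and 1975 CPM in vnd2 and 3636 and 3196 CPM in hat2, against 2512 and 2714 CPM in Col-0. In the libraries labelled obp1, where 2.51% of all genes were called higher, 5 of 8 rose, with a median of 0.87, and the steepest was LHCB3, a light-harvesting protein (1.26, SE 0.178, edgeR adjusted p = 0.000254). The count of 5 became 2 when Col-0 replicate 1 was dropped and 3 when Col-0 replicate 2 or obp1 replicate 2 was. By the paper's radicle counts, taken later in the light, every mutant but hat2 germinated late, and smb was the most delayed. Late lines without an MFT call were athb15, athb25, lmi1 and those labelled obp1 and wrky14. The part of progress through germination in the levels of MFT and the maturation targets was not tested.

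Few markers of the seed's tissues were called, where 1.86% of such tests over all genes were called. None of the 6 endosperm markers was called by edgeR in any mutant (14 of 48 tests had an unadjusted p under 0.05, and DESeq2 called 2), and their summed level was 8679 and 8767 CPM in vnd2 and 8256 and 10463.2 CPM in smb, against 7797 and 6503 CPM in Col-0. None of the 4 tested root pole markers was called (7 of 32 tests at an unadjusted p under 0.05, 0 by DESeq2). Of 3 embryo epidermis markers only PDF1, a proline-rich protein of the outer cell layer, was called, lower in vnd2 (-0.54, edgeR adjusted p = 0.00833). In vnd2 4.13% of all genes were called, and the other 2 epidermis markers were fitted higher there (median of the 3, 0.06). The part of these tissues in the MFT and target levels was not tested.

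The repressors that silence the maturation programme in seedlings, VAL factors, PKL and Polycomb subunits among them, had no call. Over all genes 1.86% of such tests were called, so having no call does not set apart lists as short as those given here. None of the 19 tested was called by edgeR in 152 tests (26 had an unadjusted p under 0.05, and DESeq2 called 1), and their summed level was 883 and 886 CPM in vnd2, against 847 and 865 CPM in Col-0. The NF-Y subunits related to or pairing with LEC1 and L1L had no call in 72 tests of 9 genes (11 at an unadjusted p under 0.05, 0 by DESeq2). TSF, the only tested PEBP relative of MFT out of 5, had none in 8 tests (0 at an unadjusted p under 0.05, 0 by DESeq2).

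Over the 8 mutants together, calls among the partners of ABI5 and DOG1 came at about the share of all genes, 1.86% of tests. Most fell in vnd2, where 4.13% of all genes were called. There 1 of 10 bZIP relatives was called higher and 1 lower, with 1 of 6 ABI5 regulators and 1 of 14 genes of the DOG1 list. Of 80 tests of 10 bZIP relatives of ABI5 2 were called (2.50%). EEL, one of these relatives, was higher in vnd2 (0.50, SE 0.101, edgeR adjusted p = 0.00373). ABF3, a bZIP of vegetative abscisic acid response, was lower there (-0.55, SE 0.127, edgeR adjusted p = 0.00991). Of 48 tests of 6 ABI5 regulators 1 was called (2.08%), AFP3, an ABI5-binding protein, lower in vnd2 (-0.44, SE 0.0955, edgeR adjusted p = 0.00609). Of 112 tests of 14 DOG1 regulators, partners and relatives 2 were called (1.79%). AHG1, the phosphatase of abscisic acid signalling that DOG1 binds, was higher in vnd2 (0.70, SE 0.121, edgeR adjusted p = 0.000986), and AT4G18650, of the DOG1-like family, was lower in the obp1-labelled libraries (-0.78, SE 0.178, edgeR adjusted p = 0.00935).

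These single-gene calls rested on few libraries. Leaving out 1 library lost the call of AHG1 in 2 of 18 edgeR fits (Col-0 replicate 2, adjusted p = 0.0365, and vnd2 replicate 1, 0.0118), and of EEL in 3 (both Col-0 libraries, 0.0307 and 0.0398, and vnd2 replicate 1, 0.0768). That of AFP3 was lost in 3 (Col-0 replicate 1, 0.115, and both vnd2 libraries, 0.0141 and 0.0735). ABF3 lost its call in 11 of 18 (adjusted p up to 0.142), PDF1 in 10 (up to 0.131) and AT4G18650 in 14 (up to 0.123).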

How the data were processed

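Polyadenylated RNA of 18 libraries (TruSeq stranded kit, sequenced on 1 flow cell) had been trimmed with Trim Galore 0.4.2, aligned to TAIR10 with HISAT2 2.0.5 and counted per Araport11 gene with featureCounts 1.5.1, per the labels and the study's methods. The authors deposited raw read counts, not normalised, in 1 table of 37336 genes, of which 37051 matched RefSeq by locus tag; 99.5% of those had the same coordinates in TAIR10.1, from which the upstream windows were read. Fitting used edgeR 4.0.16 in R 4.3.3 (trimmed mean of M-values scaling, filterByExpr with a minimum count of 10, one quasi-likelihood model of 9 genotypes, Benjamini-Hochberg adjustment over 19100 genes, calls at an adjusted p under 0.01). The biological coefficient of variation was 5.87%. CPM are counts scaled to an equal effective library size, and CPM per kb divide them by merged exon length. DESeq2 1.42.0, another filter, size factors, a replicate block, a fit of 4 libraries, another reference and leaving out each library were alternatives. Samples were grouped by their titles. Equal replicate numbers did not pair the libraries: 5 of 36 genotype pairs had correlated deviations over 0.1. The members and lists were chosen with earlier results of these data known, and 1 symbol in a list was corrected afterwards. Named were the 9 genes, up to 3 called genes of each list with the largest change, and the 2 genes most like each called member. Motifs and windows were chosen after the values were seen. Scripts were tested on simulated data.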

Additional observations from a re-analysis of the deposited data

How the results depend on the processing

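The call of MFT in vnd2 held under all 25 alternatives run, and no single-gene log2 fold change followed through them reversed. Some list medians did change sign. That of the greening genes in smb, 0.05, was -0.24 against the mean of the other 7 mutants. Calls of the 6 tested regulators against Col-0 numbered 2, but 6 with no count filter, 0 where a mean of 50 counts was required (which drops MFT, FUS3 and LEC2), 5 at an adjusted p under 0.05, and 1 to 2 with 1 library left out. The 2 regulators that differed among genotypes became 0 with the mean of 50 and 2 to 3 with 1 library left out. The 17 pair calls became 35 with no filter, 2 with the mean of 50, 31 at 0.05, 10 without the libraries labelled obp1 and wrky14 (which also leaves fewer pairs), and 11 to 18 with 1 library left out. With no count filter the adjusted p-values were far smaller. The p-values of the regulators there were those of a normal distribution for the log2 fold change over its SE. For DOG1 in hat2 over vnd2 (-3.06, SE 0.846) the unadjusted edgeR p was 0.000299. That fit thus took the spread as known, though it came from 2 libraries of each genotype. Its calls carry that limit, and why it did so was not tested.

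The 29 maturation target calls became 69 with no filter and 50 when only 4 libraries entered each fit, and lay between 19 (without Col-0 replicate 2) and 37 with 1 library left out. Greening gene calls, 8, became 17 against the mean of the other 7 mutants, 31 with no filter, 13 with 4 libraries, 2 without the libraries labelled obp1 and wrky14, 1 at a log2 change of at least 1, and 2 to 14 with 1 library left out. Repressor calls, 0, became 3 with no filter, 1 with the mean of 50, 1 with DESeq2 size factors, 1 with DESeq2, 4 at 0.05 and 0 to 1 with 1 library left out. bZIP calls, 2, became 1 with the mean of 50, 1 with DESeq2 size factors, 0 with 4 libraries, 1 without the libraries labelled obp1 and wrky14, 0 at a log2 change of at least 1 and 0 to 2 with 1 left out. NF-Y calls, 0, became 1 against the other 7 mutants. DOG1 list calls, 2, became 12 against the other 7 mutants, 15 with no filter, 1 with DESeq2 size factors, 4 with 4 libraries, 1 without the libraries labelled obp1 and wrky14, 11 at 0.05, 0 at a log2 change of at least 1 and 0 to 5 with 1 left out. ABI5 regulator calls, 1, became 2 with no filter, 0 with 4 libraries, 0 with DESeq2, 0 without the libraries labelled obp1 and wrky14, 2 at 0.05, 0 at a log2 change of at least 1 and 0 to 1 with 1 left out. Leaving out the libraries labelled obp1 and wrky14 was chosen after seeing the data.

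Equal replicate numbers did not pair the libraries (6 of 18 libraries deviated most like their own number). With the replicate block, the DOG1 list had 1 call in place of 2, and the 3 FUS3 pair calls had edgeR adjusted p-values of 0.0132, 0.0102 and 0.0107. Depth limits LEC1, L1L, DOG1 and LEC2, which had at most 16 counts in any library.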
